A study of Mus musculus with 6 samples.

Results

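The genes described here encode ATP-dependent chromatin remodellers and their subunits: 48 genes of the SWI/SNF, ISWI, CHD and INO80 families, taken by gene symbol from a list and all found among the 49315 genes of the deposited table. Remodellers use the energy of ATP to slide, eject or exchange nucleosomes, and each is built around an ATPase of the Snf2 type that works with accessory subunits. SWI/SNF complexes (BAF and PBAF) open enhancers and promoters, ISWI complexes space nucleosomes, the NuRD complex joins CHD-type ATPases to histone deacetylases, and INO80 and its SWR1-type relatives handle the histone variant H2A.Z. Many subunits come as paralogues that occupy the same position in a complex, and exchange between them is known from the differentiation of mesenchymal, neural and muscle cells.

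RNA came from mouse embryonic fibroblasts, a mixed mesenchymal culture grown out of embryos at embryonic day 13.5. Cells that were Acvr1+/+ (wild type) were compared with cells that were Acvr1R206H/+, carrying 1 mutant copy of the BMP type I receptor gene Acvr1 (called R206H below), the amino acid change of fibrodysplasia ossificans progressiva. There were 3 libraries per genotype, called biological replicates in the design text; whether each came from a single embryo is not given in the sources used here, nor is the strain. Cells of both genotypes were cultured for 2 days at passage 0 without any added agent named in the labels, and the title of the series concerns how BMP and mechanical signals act on chromatin in this disease.

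Values are TPM (transcripts per 1000000 transcripts, a level per unit of gene length that can be set side by side between genes). Libraries held an estimated 17.5 to 24.6 M assigned reads (M, 1000000). Each log2 difference subtracts the wild-type mean of log2(TPM + 1) from the R206H mean and comes with the limma standard error (SE). Its p is adjusted by Benjamini-Hochberg over 14818 genes, those reaching 1 TPM in 3 or more of the libraries; this scale understates differences of weakly expressed genes. All SDs have n = 3. Acvr1 was at 34.7 ± 1.01 TPM in wild type and 44.4 ± 2.69 in R206H, which does not check the labels, since the allele differs by 1 amino acid. Fibroblast markers were abundant in all libraries, with a summed 5670.0 to 7471 TPM over 10 genes in wild type and 8975 to 11558 in R206H. Col1a1 and Vim made up most of these sums, with means of 2214 and 3203 TPM in wild type and 4881 and 3117 in R206H. Of the 10 genes, 7 were higher at an unadjusted limma p under 0.05 (14.4% of all genes tested). None passed an adjusted p of 0.05 with limma, and 6 were higher with limma voom on reads rebuilt from TPM (4.61%). Vim, Dcn and Lum overlapped. The 10 epithelial markers summed to 506 to 539 TPM in wild type and 177 to 363 in R206H. All 8 that were tested were lower at an unadjusted limma p under 0.05, against 11.7% of all genes tested. At an adjusted p under 0.05, limma found 2 lower (0.79% of all genes). With limma voom on reads rebuilt from TPM it was 5 (4.08%). The specific regulators Esrp1 and Grhl2 were below 1 TPM in every library and were not tested. Both were lower in every R206H library than in any wild-type library. The 4 globin genes listed as erythroid markers were at 0 throughout. R206H library 3 had the lowest epithelial sum and the highest fibroblast sum of the 6. It was also the lowest or highest in the neuronal, skeletal muscle, macrophage, S phase and G2/M marker sums.

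The summed level of the remodeller genes overlapped between the genotypes, and the members whose log2 difference lay farthest from zero with limma were Smarca1, Chd7, Chd3 and Smarca2. The order among them is not fixed: Chd7 came first with voom, quantile normalization or without wild-type library 2, and Chd3 with a pseudocount of 5 or without wild-type library 1. In wild type the 48 genes summed to 2954, 2738 and 2803 TPM (replicates 1 to 3, the order kept throughout), and in R206H to 2827, 2897 and 2923. Of the 46 genes that passed the filter, none passed an adjusted p of 0.05 with limma, where 2.04% of all genes tested did (1.26% higher and 0.79% lower). At an unadjusted p under 0.05 there were 10, or 21.7% against 26.1% of all genes tested: 5 higher (14.4% of all genes) and 5 lower (11.7%). limma voom on reads rebuilt from TPM called 5 of 46, or 10.9% against 8.68% of all genes, with 3 higher (4.61%) and 2 lower (4.08%). Libraries of the genotypes did not overlap for 14 of 46, or 30.4% against 32.9% of all genes, 7 in each direction (17.9% higher and 15.0% lower over all genes). These shares are near the background of the whole table.

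The size of the differences was smaller than in the table at large. The median log2 difference was 0.02 in the members and 0.02 over all genes tested, the median absolute difference was 0.10 against 0.17, and 34 of 46 members lay within 0.2 of zero, or 73.9% against 56.1%. The members were also more abundant, with a median of 35.3 TPM against 16.4, and longer, with a median exon length of 7805 bases against 3901, and the read number of a gene grows with both. All tested members but 1, Chd5, had at least 100 rebuilt reads in every library. Since these are bulk samples, fewer cells of a type and less RNA per cell cannot be told apart in any difference below.

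**Figure D1:**
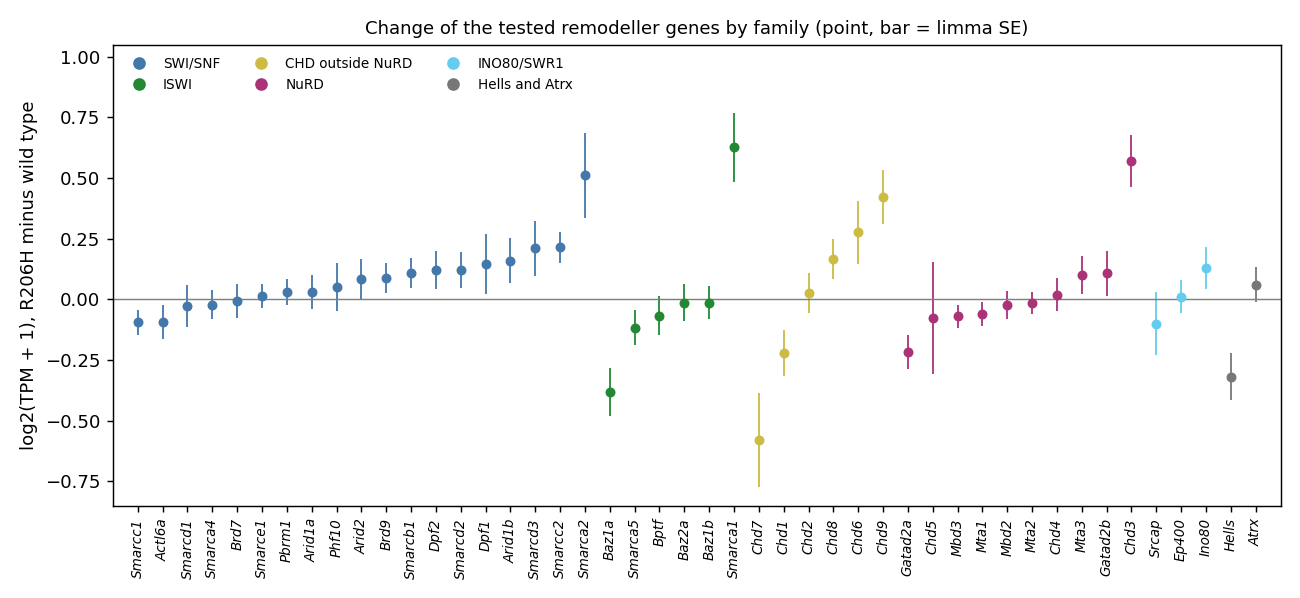
Difference in log2(TPM + 1), R206H minus wild type, for each of the 46 tested remodeller genes, grouped by family and ordered within it; points are limma estimates and bars their SE. Most genes sit within 0.2 of zero, and single genes of the ISWI, CHD and NuRD families and Smarca2 of SWI/SNF stand farthest out, from -0.58 for Chd7 to 0.63 for Smarca1.

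Summed by family, the levels overlapped between the genotypes throughout. NuRD genes made up the largest part, at 1354 ± 47.8 TPM in wild type and 1389 ± 30.6 in R206H, or 47.8% and 48.2% of the summed remodeller TPM. SWI/SNF genes followed at 1015 ± 39.6 and 1046 ± 21.5 TPM. ISWI genes summed to 238 ± 12.1 and 225 ± 6.96 TPM. The CHD genes outside NuRD summed to 115 ± 7.05 and 115 ± 3.13, and Ino80, Srcap and Ep400 together to 61.5 ± 3.83 and 63.6 ± 2.44. Hells plus Atrx summed to 47.9 ± 0.808 and 43.9 ± 3.58 TPM. The sums cover unlike parts of the complexes. The lists hold 21 SWI/SNF and 10 NuRD genes with accessory subunits, but only the 3 ATPase genes of INO80 and SWR1-type complexes. Sums of different families therefore do not rank the complexes by level. Median log2 differences by family were 0.08 for 19 tested SWI/SNF genes, -0.04 for 6 ISWI genes, 0.10 for 6 CHD genes, -0.02 for 10 NuRD genes and 0.01 for the 3 INO80 and SWR1-type ATPases. Within 0.2 of zero lay 16 of 19 SWI/SNF genes and 8 of 10 NuRD genes, 4 of 6 ISWI genes and 2 of 6 CHD genes outside NuRD. No test was made between families, and the differences between these sums changed in size, and for some in sign, with the libraries and the unit used.

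**Figure D2:**
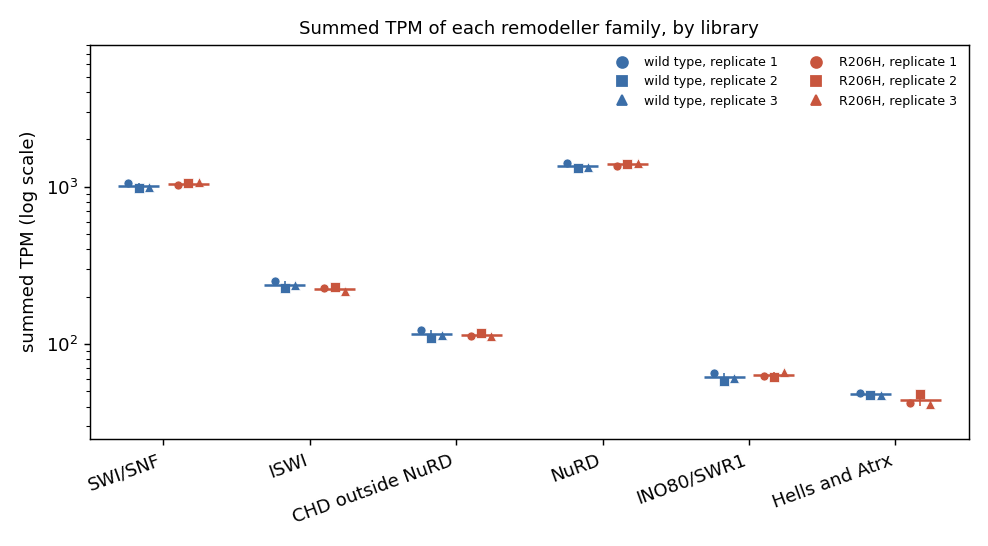
Summed TPM (log axis) of each remodeller family in the 3 wild-type (blue) and 3 R206H (red) libraries; symbols mark the replicate, horizontal lines the mean and vertical lines the SD. Red and blue symbols overlap in every family. NuRD and SWI/SNF, the families with the most listed genes, lie far above the rest, so heights do not rank the complexes by level.

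Among the ATPases of NuRD, Chd3 and Chd4 came closer in level in R206H. Chd3, which encodes one of the alternative NuRD ATPases, had 166, 145 and 134 TPM in wild type, against 199.7, 213 and 251 in R206H. All R206H values lay above all wild-type values, with library 3 the highest. The means were 148 ± 16.1 and 221 ± 26.5 TPM, a log2 difference of 0.57 (SE 0.108) that lay at the edge of the threshold with limma (adjusted p = 0.0501) and passed with voom (adjusted p = 0.0215). Over 17 alternatives its adjusted p ran from 0.0162 to 0.167, with 6 under 0.05. Chd4, the main NuRD ATPase in most tissues, had 257, 224 and 226 TPM in wild type and 231, 235 and 249 in R206H, which overlapped (log2 0.02, adjusted p = 0.882). Chd5, a paralogue best known from neurons and testis, was near the filter at 1.01 ± 0.282 and 0.897 ± 0.231 TPM. Chd3 made up 39.1, 39.3 and 37.1% of the TPM of the Chd3, Chd4 and Chd5 genes in wild type and 46.2, 47.4 and 50.1% in R206H. In R206H library 3 Chd3 and Chd4 were about level, at a ratio of 1.01, after 0.863 and 0.904 in R206H libraries 1 and 2 and 0.645, 0.649 and 0.594 in wild type. The Chd3 gene lies on chromosome 11, 69343273 to 69369406 on the minus strand (all gene positions are GRCm38).

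Among the other NuRD subunits, Gatad2a, which encodes a scaffold protein that bridges the methyl-CpG-binding part to the ATPase, had 95.05, 90.03 and 99.9 TPM in wild type and 86.2, 82.8 and 75.8 in R206H. The gene lies on chromosome 8, 69907076 to 69996384 on the minus strand. These values did not overlap, and the log2 difference was -0.22 (SE 0.069, limma adjusted p = 0.115, voom adjusted p = 0.0655, range over 17 alternatives 0.0655 to 0.314). Its paralogue Gatad2b was at 21.8 ± 2.31 and 23.5 ± 1.09 TPM, so the Gatad2a share of the pair was 79.5, 81.7 and 82.8% in wild type and 79.5, 77.4 and 75.9% in R206H, with wild-type library 1 and R206H library 1 almost level. Mbd3, the subunit with a methyl-CpG-binding fold, was the most abundant remodeller gene, with 381, 362 and 373 TPM in wild type and 355, 353 and 356 in R206H. The R206H libraries lay below all wild-type libraries by a small margin (log2 -0.07, adjusted p = 0.373). Mbd2, its alternative in the complex, was at 65.1 ± 2.66 and 64.02 ± 1.77 TPM. The MTA subunits, which hold the histone deacetylases, kept an order of Mta1 over Mta2 over Mta3 in each library, with means of 233, 159 and 23.2 TPM in wild type and 223, 157 and 24.9 in R206H, and log2 differences between -0.06 and 0.10.

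Both ISWI ATPases were measured, and of the 2 the less abundant Smarca1 had the larger difference. Smarca1 (also called SNF2L), on the X chromosome, 47809368 to 47892974 on the minus strand, had 4.92, 4.66 and 4.78 TPM in wild type and 6.62, 7.92 and 9.49 in R206H. The wild-type libraries were nearly level and every R206H library was higher, most of all library 3. The ratio of means was 1.67 and the log2 difference 0.63 (SE 0.143, limma adjusted p = 0.0655, voom adjusted p = 0.0342, range over 17 alternatives 0.0243 to 0.198). Smarca5 (SNF2H), the more abundant ATPase of the family, had 66.7, 68.7 and 64.8 TPM in wild type and 63.8, 65.1 and 55.8 in R206H, with overlap and a log2 difference of -0.12 (adjusted p = 0.354). The Smarca1 share of the pair was 6.87, 6.36 and 6.87% in wild type and 9.41, 10.8 and 14.5% in R206H. Of the accessory subunits, Baz1a (ACF1), which forms nucleosome-spacing complexes with SNF2H, had 34.1, 29.5 and 33.1 TPM in wild type and 26.7, 25.2 and 21.7 in R206H. The gene lies on chromosome 12, 54892989 to 55014348 on the minus strand, and every R206H library was below every wild-type library. The log2 difference was -0.38 (SE 0.099), past the threshold with voom (adjusted p = 0.0342) but not with limma (adjusted p = 0.0781, range over 17 alternatives 0.0342 to 0.233). Baz1b, Baz2a and Bptf, which encode the large subunits of the WICH, NoRC and NURF complexes, overlapped between the genotypes, at 62.2, 28.99 and 43.02 TPM in wild type and 61.6, 28.7 and 40.9 in R206H.

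In SWI/SNF, 2 of 19 tested genes had an unadjusted p under 0.05, or 10.5% against 26.1% of all genes tested, a share below the background. Both have a paralogue in the same position of the complex. That is not particular to them, since Smarcd1, Arid1a, Actl6a and others without an unadjusted p under 0.05 have one too. Smarca2 (BRM), the alternative to the ATPase Smarca4 (BRG1), had 6.33, 5.67 and 6.61 TPM in wild type and 7.44, 8.71 and 12.2 in R206H. R206H library 3 stood above the other two R206H libraries, and all 3 were above wild type. The log2 difference was 0.51 (SE 0.175, limma adjusted p = 0.131, voom adjusted p = 0.0728, range over 17 alternatives 0.0728 to 0.294) and 0.33 without R206H library 3. Smarca4, the predominant ATPase, had 199, 175 and 186 TPM in wild type and 182, 187 and 180.1 in R206H, with overlap (log2 -0.02). Smarca2 thus made up 3.08, 3.14 and 3.44% of the pair in wild type and 3.92, 4.44 and 6.32% in R206H, and the lowest Smarca4 share of any library was 93.7%. Smarcc2 (BAF170) had 102, 95.4 and 100.4 TPM in wild type and 109, 113 and 124 in R206H, a log2 difference of 0.21 (SE 0.065, limma adjusted p = 0.103, voom adjusted p = 0.105, range over 17 alternatives 0.0534 to 0.262). Its paralogue Smarcc1 (BAF155), which pairs with it in the core of the complex, had 90.8, 85.2 and 85.8 and 81.3, 82.7 and 80.9 TPM, with the R206H libraries all lower (log2 -0.09, adjusted p = 0.292). Smarca2 lies on chromosome 19, 26605050 to 26778322 on the plus strand, and Smarcc2 on chromosome 10, 128459248 to 128490482 on the plus strand. The Smarcc2 share of the pair was 52.8, 52.8 and 53.9% in wild type and 57.3, 57.6 and 60.6% in R206H.

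Promoter sequence was available from RefSeq (GRCm38.p6) for 39 of the 48 genes, as 46 windows of 250 bases upstream of an annotated start. The member windows were rich in CpG dinucleotides, with a median of 21 per window against 6 over all 32851 windows, and a median G + C content of 66.6% against 52.4%. G + C content ran from 33.6% at one annotated start of Chd9 to 88.4% at Phf10. That Chd9 start lies inside the gene, downstream of its other annotated start, and its use in these cells was not tested. The window at the upstream Chd9 start had 66% G + C and 16 CpG. Printed are all 5 windows that belong to a gene with an unadjusted limma p under 0.05 and hold no base of an annotated exon: Smarca1 (56.4% G + C, 6 CpG), Smarcc2 (80.8%, 40 CpG), both starts of Gatad2a (64% and 18 CpG, 70.4% and 20 CpG) and 1 of 2 starts of Chd9 (33.6%, 1 CpG). Capitals mark CCAAT (the core bound by NF-Y) and CAGAC (the core bound by SMAD proteins), each searched on both strands, where they read ATTGG and GTCTG when on the other strand. In the order printed, the windows are chrX:47892614-47892863 (minus strand), chr10:128458986-128459235 (plus strand), chr8:69996385-69996634 and chr8:69974384-69974633 (minus strand) and chr8:90931999-90932248 (plus strand), each written 5′ to 3′ on the gene's strand.
Smarca1: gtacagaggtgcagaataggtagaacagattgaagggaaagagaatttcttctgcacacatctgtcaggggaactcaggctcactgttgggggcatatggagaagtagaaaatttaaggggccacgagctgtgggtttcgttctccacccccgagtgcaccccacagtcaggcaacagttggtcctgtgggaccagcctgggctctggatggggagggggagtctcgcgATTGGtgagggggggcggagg
Smarcc2: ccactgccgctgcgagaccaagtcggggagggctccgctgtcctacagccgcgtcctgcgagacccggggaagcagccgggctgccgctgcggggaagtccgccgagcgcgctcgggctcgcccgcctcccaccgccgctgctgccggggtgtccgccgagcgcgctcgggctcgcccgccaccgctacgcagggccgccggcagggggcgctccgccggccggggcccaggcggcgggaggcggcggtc
Gatad2a, upstream start: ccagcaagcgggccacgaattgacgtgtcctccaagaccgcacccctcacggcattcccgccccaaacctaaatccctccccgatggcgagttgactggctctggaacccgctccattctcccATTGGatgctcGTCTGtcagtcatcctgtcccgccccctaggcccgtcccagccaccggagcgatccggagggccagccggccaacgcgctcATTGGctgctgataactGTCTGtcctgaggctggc
Gatad2a, downstream start: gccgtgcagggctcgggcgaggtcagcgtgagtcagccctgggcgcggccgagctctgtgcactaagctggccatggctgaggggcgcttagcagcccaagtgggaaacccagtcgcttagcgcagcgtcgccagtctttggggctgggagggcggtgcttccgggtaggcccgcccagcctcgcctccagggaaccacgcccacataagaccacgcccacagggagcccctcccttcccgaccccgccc
Chd9: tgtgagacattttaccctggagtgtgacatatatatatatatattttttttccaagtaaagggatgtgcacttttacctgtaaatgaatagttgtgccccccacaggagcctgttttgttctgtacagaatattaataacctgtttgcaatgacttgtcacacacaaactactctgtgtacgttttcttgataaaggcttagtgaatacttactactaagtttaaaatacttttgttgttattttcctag

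The Smarca1 window held 1 CCAAT and no CAGAC, and the upstream Gatad2a window 2 of each. The Smarcc2 window, the downstream Gatad2a window and the printed Chd9 window, at the start inside the gene, held neither. The window at the upstream Chd9 start held 1 CAGAC but no CCAAT, and was not printed because it lies in an annotated Chd9 exon. CCAAT was in 32.6% of member windows and 33.8% of all windows, and CAGAC in 30.4% and 42.2%. The sequence TTTCCCGC, a form of the E2F site, was found on either strand in 4 member windows, those of Hells, Arid1a, Brd7 and Smarcd1, or 8.7% against 0.895% of all windows. The form TTTGGCGC was in none of the 46 and in 0.417% of all windows. Of the 4 genes with TTTCCCGC, Hells had an unadjusted limma p under 0.05 between the genotypes and the other 3 did not. The member windows and all windows differ in base composition, as given above, so these shares are a description.

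The remaining 17 tested SWI/SNF genes had log2 differences from -0.09 to 0.21, with no unadjusted p below 0.107. The DNA-binding subunit gene Arid1a, which marks canonical BAF, was at 63.3 ± 5.04 and 64.6 ± 2.200 TPM, and its paralogue Arid1b at 20.2 ± 0.234 and 22.7 ± 2.57. The R206H libraries of Arid1b and of the core gene Smarcb1 lay above all wild-type libraries, by log2 0.16 and 0.11 (adjusted p = 0.3198 and 0.308). PBAF genes overlapped: Arid2 was at 21.01 and 22.2 TPM, Pbrm1 at 57.6 and 58.9, and Brd7 at 34.5 and 34.4, for wild type and R206H in turn. Brd9, the bromodomain gene of non-canonical BAF, was at 53.5 and 56.96 TPM. Smarce1, another core gene, was at 79.4 and 80.1 TPM. The SMARCD group, which links the complex to transcription factors, comprised Smarcd1 at 46.3 and 45.4 TPM, Smarcd2 at 59.8 and 65.2, and Smarcd3, the paralogue of heart and muscle (BAF60C), at 12.3 and 14.2. Smarcd3 shares 48.2% of its exon bases with Chpf2 and a microRNA gene, so its level is uncertain. The same holds, with 12.7% for Smarcd1, 9.56% for Phf10, 11.6% for Actl6a, 5.77% for Chd8 and 19.3% for Chd2, to a lesser degree.

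The members of the actin-related and double PHD finger groups ranged from near 0 to the level of the core subunits. Actl6b, the neuronal actin-related subunit, was listed at 0 in 4 libraries and at 0.0497 and 0.0412 TPM in wild-type library 1 and R206H library 3, while its counterpart Actl6a, found in progenitors and most other cells, was at 69.2, 75.8 and 66.2 TPM in wild type and 68.6, 66.4 and 62.5 in R206H. Dpf3, a double PHD finger gene of muscle and neurons, ranged from 0.149 to 0.342 TPM. Actl6b and Dpf3 were the 2 members that did not pass the filter. Dpf1, the third gene of that group, was at 5.09 ± 0.134 and 5.76 ± 0.661 TPM, below the widely expressed Dpf2 at 34.7 and 37.7 and Phf10, the PBAF counterpart, at 46.2 and 47.97. Of 12 neuronal markers, 7 were tested. Prph and Tubb3 were higher in R206H at an adjusted p under 0.05 with limma, against 1.26% of all genes tested. Stmn2, Elavl4, Nefl, Map2 and Nefm overlapped between the genotypes, with log2 differences from -0.16 (Map2) to 0.29 (Stmn2). The neuronal genes Rbfox3, Snap25, Syt1, Dcx and Elavl3 were below 1 TPM in every library. The part of neuronal cells in the levels above was not tested.

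**Figure D3:**
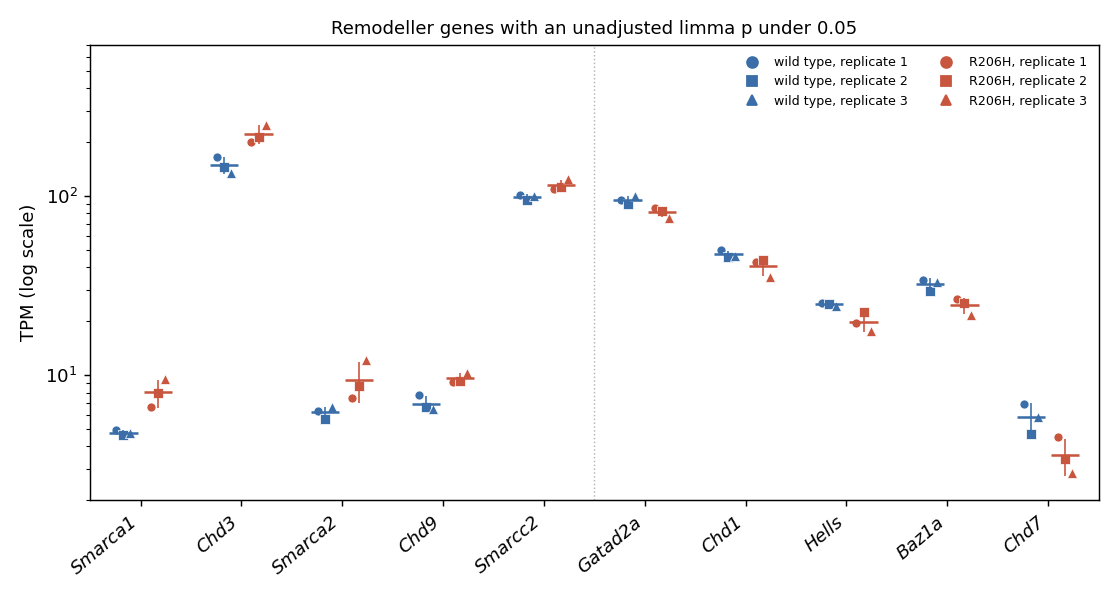
TPM (log axis) of the 10 remodeller genes with an unadjusted limma p under 0.05 in the 3 wild-type (blue) and 3 R206H (red) libraries; symbols mark the replicate, horizontal lines the mean and vertical lines the SD. For the 5 genes left of the dotted line every red symbol lies above the blue ones and for the 5 to the right every one lies below, with R206H library 3 (red triangle) farthest from wild type for all 10.

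The CHD genes outside NuRD held differences in both directions. Chd9, a large CHD remodeller of the same subfamily as Chd7, had 7.71, 6.64 and 6.44 TPM in wild type and 9.203, 9.27 and 10.3 in R206H. The groups did not overlap, and the log2 difference was 0.42 (SE 0.111, limma adjusted p = 0.0815, voom adjusted p = 0.0235, range over 17 alternatives 0.0235 to 0.245). Chd7, which acts at enhancers and whose loss of function causes CHARGE syndrome, had 6.95, 4.71 and 5.84 TPM in wild type and 4.502, 3.39 and 2.84 in R206H. Its R206H libraries were all lower, although R206H library 1 came close to wild-type library 2. The log2 difference was -0.58 (SE 0.192), with an adjusted p of 0.123 with limma and 0.0506 with voom (range over 16 alternatives 0.0506 to 0.2901). Chd9 lies on chromosome 8, 90828352 to 91054516 on the plus strand, Chd7 on chromosome 4, 8690406 to 8867659 on the plus strand, and Chd1 on chromosome 17, 15704967 to 15772610 on the plus strand. Chd8, the most abundant of this subfamily and a regulator of Wnt targets, overlapped at 26.8 ± 2.38 and 30.2 ± 1.13 TPM, and so did Chd6 at 8.42 ± 0.7999 and 10.4 ± 1.47. Within the summed TPM of Chd6 to Chd9, Chd7 made up 13.1, 10.7 and 12.4% in wild type and 8.77, 6.25 and 5.11% in R206H, and Chd9 14.5, 15.2 and 13.7% and 17.9, 17.05 and 18.6%. Chd7 was thus below Chd9 in all 6 libraries, by a wider margin in R206H. Chd1, which binds trimethylated histone H3 lysine 4 at active genes, had 49.8, 45.8 and 46.2 TPM in wild type and 42.6, 43.8 and 35.3 in R206H (log2 -0.22, adjusted p = 0.192), and the difference was -0.13 without R206H library 3. Chd2, its closest relative, overlapped at 19.95 ± 0.697 and 20.4 ± 1.503 TPM.

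**Figure D4:**
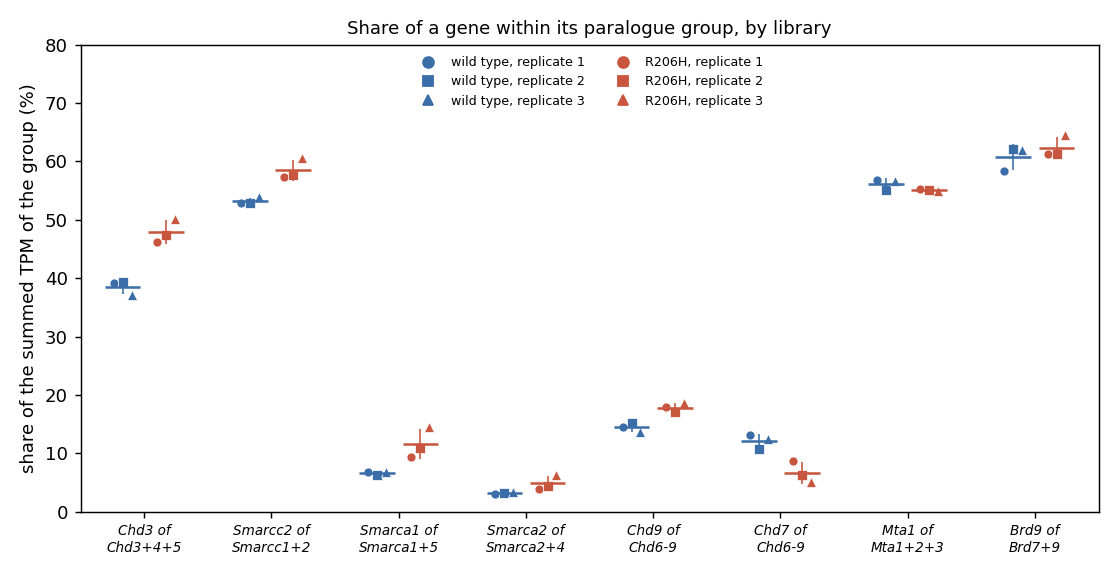
Share of a gene in the summed TPM of its paralogue group, in percent, in the 3 wild-type (blue) and 3 R206H (red) libraries; symbols mark the replicate, horizontal lines the mean and vertical lines the SD. Chd3, Smarcc2, Smarca1, Smarca2 and Chd9 have larger shares in every R206H library and Chd7 a smaller one, while Mta1 and Brd9 overlap.

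Each of the paralogue shares above is a description of these libraries, with no test, and 3 against 3 libraries cannot give an exact two-sided p below 0.1. The groups of ATPase genes differed in pattern. Chd3, Smarca1 and Smarca2, each less abundant in wild type than Chd4, Smarca5 and Smarca4, had higher TPM in every R206H library than in any wild-type library, while those 3 more abundant genes overlapped. Chd5, the least abundant of the NuRD ATPases, overlapped. Chd7, the gene with the smallest share of its group in wild type, lay lower in every R206H library, and of Chd1 and Chd2 it was the more abundant Chd1 that lay lower while Chd2 overlapped. For all 5 higher and all 5 lower genes, R206H library 3 was the one farthest from wild type. The same was not counted over all genes tested, so it is not shown to be particular to the remodeller genes. R206H library 3 also had the lowest epithelial sum, 177 TPM, and the highest fibroblast sum, 11558 TPM. It was the lowest too for the skeletal muscle (471 TPM), macrophage (48.3), S phase (1440.2) and G2/M (984) marker sums. For the neuronal marker sum it was the highest (107 TPM). Its endothelial and erythroid sums lay within the range of the other libraries. The part of these markers in the remodeller differences was not tested.

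All 3 ATPase genes of the INO80 and SWR1-type complexes overlapped between the genotypes. Ino80 was at 22.8 ± 2.16 and 24.99 ± 0.843 TPM. Ep400, the ATPase of the TIP60 complex, had 35.8, 32.4 and 33.3 TPM in wild type and 34.1, 32.9 and 35.4 in R206H, which overlapped. Srcap was at 4.82 ± 0.269 and 4.44 ± 0.487 TPM, but 65.01% of its exon bases are shared with other annotated genes, so its level is uncertain. Log2 differences of the 3 genes ran from -0.10 to 0.13 with adjusted p values of 0.384 and above.

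Hells (LSH), a Snf2-type ATPase needed for DNA methylation and expressed in dividing cells (chromosome 19, 38930915 to 38971051 on the plus strand), had 25.4, 24.9 and 24.5 TPM in wild type and 19.4, 22.5 and 17.7 in R206H. The wild-type libraries lay within a narrow band and all R206H libraries were below it, giving a log2 difference of -0.32 (SE 0.097). This passed with voom (adjusted p = 0.0415) but not with limma (adjusted p = 0.103, range over 17 alternatives 0.0415 to 0.251). Beside it, 14 S phase markers summed to 1588 to 1781 TPM in wild type and 1440.2 to 1499 in R206H, with 11 of 14 at an unadjusted limma p under 0.05, all lower, none past the adjusted threshold with limma and 4 lower with voom. Of 12 G2/M markers, 5 had an unadjusted p under 0.05, all lower, with sums of 1058 to 1141 and 984 to 1025 TPM. Over all genes tested, 11.7% were lower at an unadjusted limma p under 0.05 and 4.08% were lower with voom. The part of these markers in the Hells difference was not tested. Cdca7, which recruits HELLS to chromatin, was at 31.4 ± 0.647 and 26.3 ± 3.03 TPM (log2 -0.25, limma adjusted p = 0.151). Atrx, which deposits the histone variant H3.3 at repeats with its partner Daxx, had 23.3, 22.5 and 22.8 TPM in wild type and 22.6, 25.4 and 23.9 in R206H, which overlapped.

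A further 60 tested genes came from lists of other subunits of the same complexes and of other Snf2-type genes and partners, the latter with 15. None of the 60 passed the adjusted threshold with limma. At an unadjusted p under 0.05 there were 11 (2 higher and 9 lower), and voom called 2, both lower. These are 18.3% against 26.1% of all genes tested at the unadjusted p, and 3.33% against 8.68% with voom, both below the background of the table. Libraries of the genotypes did not overlap for 23 of 60, or 38.3% against 32.9% of all genes and 35.7% of protein-coding genes tested. Of these 23, 6 were higher and 17 lower (17.9% and 15.0% over all genes). The share was not tested against the background and is not read as a result about these lists. In the INO80 and SWR1-type list, 7 of 27 had an unadjusted p under 0.05, 6 of them lower. That share, 25.9%, is at the background of 26.1%, so the genes that follow are named as those with the smallest p values and not as a result about the list. Ruvbl2, which encodes one of the AAA+ ATPases that form the ring of these complexes, was at 162 ± 4.27 and 131 ± 9.16 TPM (log2 -0.30, SE 0.063, limma adjusted p = 0.05898) and was called by voom. Its partner Ruvbl1 was at 162 ± 4.84 and 139.9 ± 6.09 TPM (log2 -0.21, limma adjusted p = 0.0797). Uchl5, a deubiquitinase bound to INO80 and the proteasome, was at 47.5 ± 1.77 and 37.6 ± 3.63 TPM (log2 -0.33, limma adjusted p = 0.0736) and was also called by voom. For these 3 genes every R206H library lay below every wild-type library, whereas Ino80, Ep400 and Srcap overlapped. S phase marker sums, given beside Hells, were also lower in every R206H library, and their part in these values was not tested.

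NuRD partners included Hdac1, the deacetylase, at 198 ± 7.93 and 222 ± 3.29 TPM (log2 0.16, limma adjusted p = 0.108), and the histone chaperone genes Rbbp4 and Rbbp7, shared with ISWI complexes, with log2 values of -0.12 each (adjusted p = 0.167 and 0.242). Of 6 tested NuRD partners, 2 had an unadjusted p under 0.05 (33.3%), and of 6 ISWI partners 1 did (16.7%), against 26.1% of all genes tested. Rbbp4 was the same gene in both. The ISWI histone-fold genes Chrac1 and Pole3 had log2 values of -0.21 and -0.11. None of 8 SWI/SNF partners had an unadjusted p under 0.05. Bcl7a, Bicral and Ss18 had the smallest p values there, with log2 values of -0.26, -0.21 and -0.12. Of 15 other Snf2-type genes and partners, 2 had an unadjusted p under 0.05 (13.3%). These were Cdca7 and Btaf1, both lower (11.7% of all genes), followed by Smarcad1 at -0.20. With so few genes in each list, these shares are a description and not a result about a list.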

How the data were processed

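RNA of 3 wild-type and 3 R206H samples was sequenced as 150 bp read pairs after removal of ribosomal RNA, per the labels' protocols. Deposited values are TPM per Ensembl gene, summing to 1000000 in each library. Tools named in the submitters' processing notes are STAR, Trimmomatic, DESeq2, Subread and featureCounts, and the builds GRCm38 and mm10; of the gene lengths, annotation release and strand setting, nothing is given in the sources used here. A TPM value depends on all other genes of its library. With exon lengths from GENCODE M21 (GRCm38; 49056 of 49315 genes matched), 91.2% to 91.5% of non-zero values under 100 reads were whole reads within 0.05, which gave the depth. No pair of libraries had an identical non-zero value for more than 1 gene.

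limma 3.58.1 in R 4.3.3 (lmFit, eBayes with trend, two-sided, no covariate, pseudocount 1) was fitted to all 14818 genes at 1 TPM or more in 3 libraries, and checked on simulated data. p-values measure the spread between these libraries. Alternatives were pseudocounts, filters, scalings, no trend, library weights, the replicate number as a block, voom on rebuilt reads, an adjusted p under 0.10 and leaving out each library. Described in every library were genes at an unadjusted p under 0.05 or called by voom, their paralogues at least by mean, and the most abundant gene of each family; of each partner list, up to 3 genes with the smallest p. Members and lists were chosen with earlier results of these data known. The partner gene Bcl11b was not analysed here, and 9 members had no entry among the promoter sequences. Figures were drawn with matplotlib 3.10.9 in Python 3.11.15.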

Additional observations from a re-analysis of the deposited data

How the results depend on the processing

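All 10 described genes kept their direction in each alternative that could be computed for them, and no remodeller gene passed an adjusted p of 0.05 with pseudocounts of 0.1 or 5, no filter, quantile normalization, rescaling without the 50 highest and mitochondrial genes, or no trend. With limma at a filter of 5 TPM and with median-of-ratios scaling 1 passed (Chd3), with library weights 4 (Chd3, Smarca1, Chd9 and Baz1a), with voom 5 (these and Hells) and at an adjusted p under 0.10 4 (as with weights, 12.1% over all genes). Leaving out single libraries gave 0 to 2: Chd3 without wild-type library 1, and Chd3 and Smarca1 without R206H library 1. Among all genes tested, 303 passed, against 129 with pseudocount 0.1, 2 without a filter, 587 at a filter of 5 TPM, 200 with quantile normalization, 27 without the trend, 1906 with library weights, 1284 with voom and 1787 at 0.10, and 0 to 722 with a library left out (0 without R206H library 2, 722 without R206H library 1, 5, 1 and 1 without wild-type libraries 2 and 3 and R206H library 3). The cause was not tested, except that fewer libraries were fitted in the last. Of the calls 61.4% were higher, against 71.3% with pseudocount 0.1, 76.0% without wild-type library 1 and 70.4% without the trend. The share was smaller with voom (53.0%), without R206H library 1 (56.9%) and with library weights (58.9%). With the replicate number as a block, 0 genes passed in the table and 0 remodeller genes, and deviations of same-numbered libraries correlated at 0.018, 0.060 and -0.028, so the numbers were not taken to pair the samples; not every library correlated best with its own number.

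With rebuilt reads in place of TPM, which weights genes by length, the Smarca2 share difference was 3.33 instead of 1.67 percentage points, and differences in family sums were -44.3 for ISWI, 11.8 for CHD outside NuRD, 105.9 for NuRD and -0.18 for INO80 and SWR1-type genes, per 1000000 reads, against -12.7, -0.47, 35.4 and 2.05 TPM. With a library left out, the differences in summed TPM ran from 14.4 (without wild-type library 2) to 61.4 (without wild-type library 1) for NuRD, in the same order from 15.2 to 53.1 for SWI/SNF, -18.1 to -6.20 for ISWI, 0.42 to 4.16 for INO80 and SWR1-type genes and -3.63 to 3.33 for CHD outside NuRD, and from -6.07 (without R206H library 2) to -2.88 (without R206H library 3) for Hells plus Atrx. With a library left out, share differences in percentage points ran from 8.29 to 10.2 for Chd3, 3.43 to 5.98 for Smarca1, 0.959 to 2.16 for Smarca2 and -6.41 to -4.58 for Chd7. Depth limits the genes under 1 TPM, Actl6b and Dpf3, for which no difference could be read.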
